A study of Homo sapiens with 12 samples.

Results

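A set of 43 features, of 78932 rows in the count table, was on in the resistant cells of the melanoma line WM9 and off in every other library of the series. Members were chosen by their measured values: at least 5 CPM (the count per 1000000 counts of the library) in all 3 WM9 resistant libraries and at most 1 CPM in each of the 9 other libraries. Rows carry neither gene names nor identifiers, so a member is called by its row number counted below the header, and the row order was not used to guess a gene. The members' sequences, functions and annotation were therefore not analysed here, and the labelled cell type was not checked against markers.

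RNA sequencing covered 12 libraries in 4 groups of 3, from WM9 and Hs294T, lines of metastatic melanoma cells for which the labels name the same BRAF mutation. WM9 resistant and Hs294T resistant cells had been adapted to rising concentrations of vemurafenib and cobimetinib, ending at 0.4 µM of each, and WM9 control and Hs294T control cells had received rising amounts of the solvent DMSO. The labels call the replicates biological and do not say whether they came from separate cultures, so p-values measure the spread between these libraries. Whether a resistant line was 1 clone or a population, and whether the drugs were present at harvest, is not given in the sources used here, and resistance, drug exposure and separate culture cannot be told apart.

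BRAF and MEK are successive kinases of the MAPK pathway, which drives proliferation in melanomas with an activated BRAF. Vemurafenib inhibits mutant BRAF and cobimetinib inhibits MEK, the kinase downstream of it. Melanoma cells kept under such inhibitors are known to become resistant by several routes, among them renewed signalling through the pathway and a shift of cell state with the transcription of genes that the parental cells keep silent, so that lines can differ in the genes they switch on.

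Libraries held between 16817256 and 22561406 counts, so 1 CPM corresponded to between 16.8 and 22.6 counts. The control groups of both lines were nearly alike, with log2 CPM correlating across features at a median Pearson r of 0.97 between lines, against 0.79 between WM9 control and WM9 resistant and 0.856 between the resistant groups. Whether the control libraries match their line labels was not tested. The mean chi-square per feature, about 1 under sampling noise alone, was 2.93 between WM9 control 2 and 3 and 3.08 between Hs294T resistant 2 and 3. All other pairs within a group lay between 33.5 and 139. These near-identical pairs were kept as separate libraries. Calls of members, the members' sums and the overlap of the Hs294T groups are also given with each pair summed and counted as 1 library. For the sums and the overlap this was chosen after seeing the data. Other counts and medians, such as members with a count in every library of a group, were not retaken in this way. With pairs summed, the members' mean sum in WM9 control was 5.69 CPM, beside 5.07 with all libraries, and that in Hs294T resistant 10.3, beside 10.6.

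In WM9 resistant cells the members together reached 2213, 2449 and 2225 CPM in replicates 1, 2 and 3, a mean of 2296 ± 133 (SD, n = 3). This corresponded to between 0.221% and 0.245% of a library's counts. The same 43 features summed to 5.07 ± 2.14 CPM in WM9 control, 4 ± 1.34 CPM in Hs294T control and, in Hs294T resistant, 10.6 ± 1.77 CPM (SD, n = 3 each). These sums restate the rule that chose the members and were not tested. The lowest count of a member in a WM9 resistant library was 88 and the highest count of a member anywhere else was 20.

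**Figure D1:**
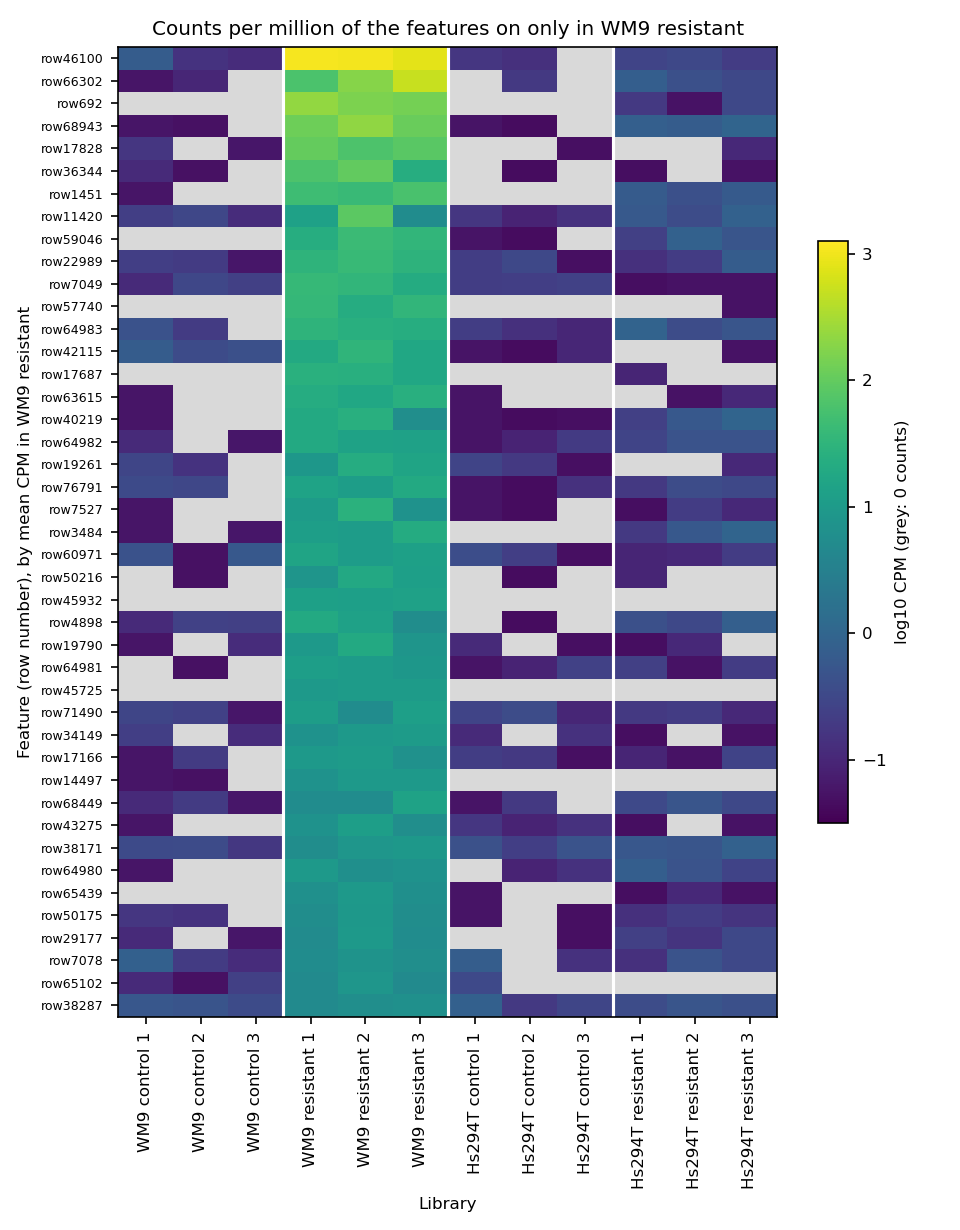
Each cell is the log10 CPM of 1 member (vertical axis, by mean CPM in WM9 resistant) in 1 library (horizontal axis), and grey marks 0 counts. The WM9 resistant columns hold at least 5 CPM in every row by the rule, with row46100 at the top, and every cell of the other columns lies at or below 1 CPM.

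Most of the reads came from a few members. The feature row46100 had 1072, 1029 and 814 CPM in WM9 resistant replicates 1, 2 and 3, a mean of 972 ± 138 CPM (SD, n = 3). It stood at rank 114 of all rows by mean CPM in these libraries, and it held between 0 and 0.687 CPM in the 9 others. Its 60024 counts in WM9 resistant stood against 17 in WM9 control, a ratio of counts per library total of 3080 (95% counting interval 1924 to 5288), and against 16 in Hs294T resistant, a ratio of 3598 (2216 to 6296). CPM is not scaled by transcript length, so the order of members is an order of reads and not of transcript number.

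The next feature, row66302, had 61.6, 186 and 524 CPM in WM9 resistant replicates 1, 2 and 3. Replicate 3 was thus 8.5 times as high as replicate 1, and the mean of 257 ± 239 CPM (SD, n = 3) describes no single library well. In the other libraries it held at most 0.742 CPM, which was in Hs294T resistant 1.

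For row692 the WM9 resistant values were 230, 154 and 135 CPM, and all 6 control libraries had 0 counts. Against a floor of 3 counts over the WM9 control group it was at least 3055-fold higher in WM9 resistant. Hs294T resistant libraries held 0.186, 0.0523 and 0.315 CPM of it, 11 counts in all.

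The feature row68943 had 123, 218 and 113 CPM in WM9 resistant and 0.788, 0.68 and 0.946 CPM in Hs294T resistant replicates 1, 2 and 3. None of the 6 controls exceeded 0.0572 CPM. Together these 4 members made up 67.7% of the members' counts in WM9 resistant libraries. Without row46100, the members summed to 1324 ± 159 CPM in WM9 resistant, 4.75 ± 1.83 in WM9 control, 3.9 ± 1.28 in Hs294T control and, in Hs294T resistant, 10.4 ± 1.82 CPM (SD, n = 3 each).

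The remaining members were less abundant in reads. Mean CPM in WM9 resistant lay between 50 and 100 for 3 members, between 20 and 50 for 9, between 10 and 20 for 13 and below 10 for 14, with a median of 14.8 over all members. At least 10 CPM in all 3 libraries was reached by 20 of the 43. Among 36 members with a count in WM9 control, the ratio of WM9 resistant to WM9 control ran from 12.2 (row38287) to 4913 (row66302, on 3 control counts, 95% counting interval 1681 to 23826), with a median of 186. The other 7 members had no count in WM9 control, and their lower bounds ran from 136-fold to 3055-fold. Counting intervals and floors cover counting error only.

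No count in any of the 9 other libraries was found for 2 members. The feature row45932 had 13.1, 12.4 and 13.5 CPM in WM9 resistant, a mean of 13 ± 0.535 CPM, and row45725 had 9.21, 10.8 and 10.4 CPM, a mean of 10.1 ± 0.826 CPM (SD, n = 3 each). Both varied little between the WM9 resistant libraries. A count of 0 allows up to 3 counts, or between 0.137 and 0.178 CPM in a single other library. These features were named for that pattern after their values were seen, and over the WM9 control group the bounds are at least 235-fold for row45932 and at least 185-fold for row45725.

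Values near the bounds show where the rule cut. Just inside the lower bound, row65102 had a lowest WM9 resistant value of 5.03 CPM and row38287 of 5.09 CPM. Just outside it, row65457 missed with 4.95 CPM in WM9 resistant 3 beside 5.15 and 14 CPM in the others, and row36577 missed with 4.73 CPM beside 9.21 and 6.52 CPM. At the upper bound, row3484 and row68943 were inside with 0.946 CPM each in Hs294T resistant 3. The feature row72904 was outside with 1.02 CPM in Hs294T resistant 1, although it had 39.4, 36.7 and 45.5 CPM in WM9 resistant, and row48276 was outside with 1.03 CPM in WM9 control 1.

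The 3 WM9 resistant libraries did not carry the members at equal levels. The SD of log2 CPM over these libraries had a median of 0.388 over the members (quartiles 0.273 and 0.569), beside 0.313 (0.183 and 0.526) over all 8944 rows with at least 5 CPM in the same 3 libraries. The highest library exceeded the lowest more than 2-fold for 11 members (25.6%), beside 25% of those rows. The members' share was thus near that of other expressed features, and this spread was not tested.

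The widest spread was that of row11420, with 13.6, 87.8 and 5.45 CPM in WM9 resistant replicates 1, 2 and 3. Replicate 2 was 16.1 times as high as replicate 3, and the SD of log2 CPM was 2.04, beside 1.54 for row66302. Its lowest library lay close to the bound of 5 CPM, whereas its 9 other libraries lay between 0.0912 and 0.841 CPM. By the highest library, which the rule left free above 5 CPM, WM9 resistant 1 was the highest for 12 members, WM9 resistant 2 for 20 and WM9 resistant 3 for 11. Over the 8944 rows, the shares highest in these libraries were 18.6%, 53.7% and 27.7%. With library sizes scaled by trimmed mean of M-values (TMM) factors, the numbers were 16, 15 and 12 members, or 37.2%, 34.9% and 27.9%, beside 36.3%, 34.2% and 29.5% of those rows.

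**Figure D2:**
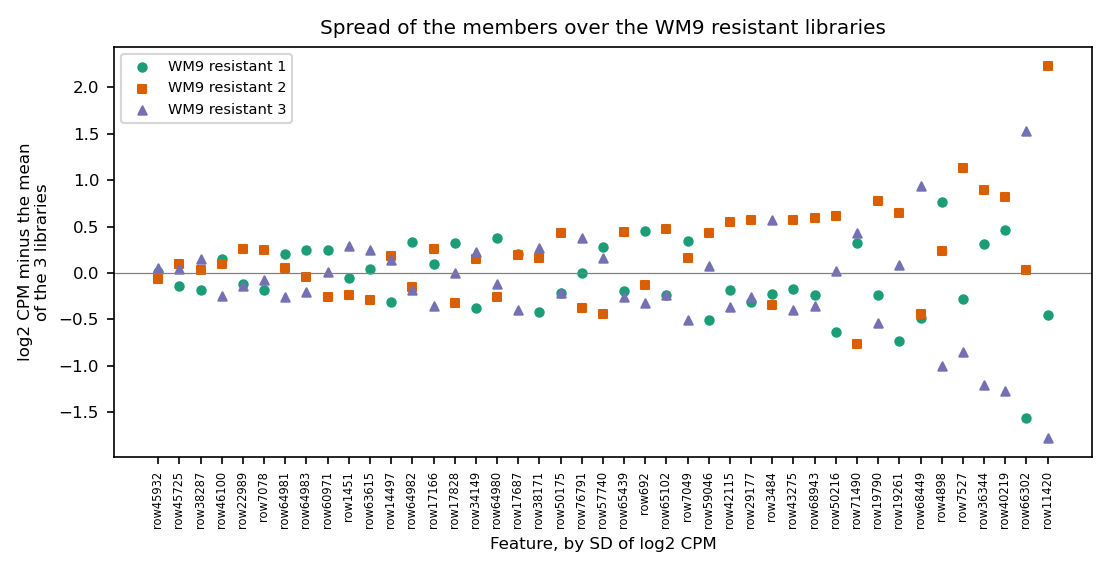
Points give the log2 CPM of a member in each WM9 resistant library minus the mean of the 3 libraries (vertical axis), with members ordered by the SD of log2 CPM (horizontal axis). The spread grows from an SD of 0.06 for row45932 on the left to 2.04 for row11420 on the right, and different libraries are highest for different members.

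The 9 libraries outside WM9 resistant still held some reads of the members. In Hs294T resistant the members summed to 9.46, 9.78 and 12.7 CPM in replicates 1, 2 and 3, above all 6 controls, which lay between 3.05 and 7.44 CPM. A count in all 3 libraries was seen for 28 members in Hs294T resistant, 16 in Hs294T control and 13 in WM9 control. More than 0.5 CPM in at least 1 library was seen for 14, 2 and 5 members in these groups. The WM9 control and Hs294T control libraries numbered 1 were the highest of their groups, with 7.44 and 5.53 CPM, and what set them apart was not tested.

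**Figure D3:**
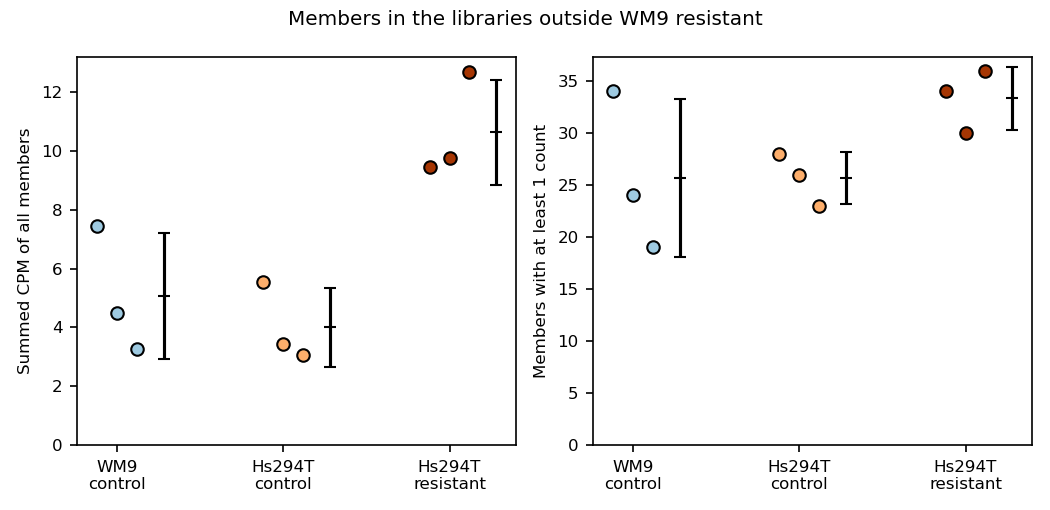
Points are the 3 libraries of each group outside WM9 resistant, and bars give the mean and SD. On the left, the summed CPM of the 43 members lies between 9.46 and 12.7 in Hs294T resistant and between 3.05 and 7.44 in the controls. On the right, the number of members with at least 1 count runs from 30 to 36 in Hs294T resistant and from 19 to 34 in the controls.

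Low levels in Hs294T were compared between states. The compared groups contain no WM9 library, and the rule placed only the ceiling of 1 CPM on them. The spread of a feature was however estimated over all 12 libraries. The p-values here and between the control groups thus also rest on the WM9 resistant libraries that chose the members. All 43 members passed the low-count filter, which they did through their WM9 resistant counts. Of them, 13 (30.2%) were higher and 1 (2.33%) was lower in Hs294T resistant than in Hs294T control (edgeR quasi-likelihood test, adjusted p below 0.05 over all 18615 features tested, n = 3 per group). Over all features tested, 24.9% were called higher and 24.9% lower. Over the 1917 tested features that, like the members, had at most 1 CPM in all 6 Hs294T libraries, 17.3% were called higher and 13.4% lower. These 1917 features include the members, and by which group the others passed the filter was not counted. The shares therefore stand side by side as a description, and the set as a whole was not tested.

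Groups did not overlap, with all 3 Hs294T resistant libraries above all 3 Hs294T controls, for 18 members, and lay the other way round for 2. The shares over all features tested were 27.6% and 28.7%. For the overlap, no share was taken over the low features alone, so these shares are no like-for-like background. The fitted log2 fold change had a median of 1.37 over the members, -0.07 over all features tested and 0.09 over the low features. Since several members had no count in 1 or both Hs294T groups, the count ratio was also taken with a floor of 3 counts. It could be given for 38 members and had a median of 2.88. With the near-identical pairs summed, 12 members were called higher and 0 lower, beside 4139 and 3413 of all 20097 features tested in that fit. The groups did not overlap, with Hs294T resistant above, for 18 members. Fewer Hs294T resistant libraries make this easier to reach, and the share over all features was not taken for this setting. The number is thus no check of the one with all libraries. The call lost on the higher side was that of row68449. The members named next kept their calls, with edgeR adjusted p = 4.43e-05 for row68943, 0.000253 for row1451 and 0.00135 for row3484.

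The lowest adjusted p in this contrast belonged to row68943, with 0.788, 0.68 and 0.946 CPM in Hs294T resistant and 0.0553, 0.0456 and 0 CPM in Hs294T control replicates 1, 2 and 3. The groups did not overlap, and the log2 fold change was 4.43 (SE 0.58, edgeR adjusted p = 1.7e-05). Its level in Hs294T resistant, 0.805 ± 0.134 CPM (SD, n = 3), stayed far below the 151 ± 58 CPM of WM9 resistant (SD, n = 3), with a count ratio between these groups of 191 (95% counting interval 144 to 260).

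The feature row1451 had 0.649, 0.418 and 0.631 CPM in Hs294T resistant and no count in Hs294T control. It was at least 11.5-fold higher against the floor of 3 counts over the group (edgeR adjusted p = 8.3e-05), while WM9 resistant held 47.7, 42.2 and 60.8 CPM. For row3484 the Hs294T resistant values were 0.186, 0.575 and 0.946 CPM, again with no count in Hs294T control. It was at least 11.2-fold higher (edgeR adjusted p = 0.000747), and WM9 resistant held 12.1, 11.2 and 21.1 CPM.

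In all 13 members called higher, the Hs294T groups did not overlap. The same libraries gave the calls, so this adds no support to them. Their mean CPM ran from 0.169 to 0.805 in Hs294T resistant and from 0 to 0.152 in Hs294T control, and their count ratio, with bounds for the 3 that had no control count, ran from 3.48 to 30.5 with a median of 11.2. WM9 resistant means exceeded those of Hs294T resistant between 15.5-fold and 939-fold. These differences between the Hs294T states concern levels of at most 20 counts per library.

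The member called lower was row7049, named for this after its values were seen. It had 0.221, 0.228 and 0.242 CPM in Hs294T control and 0.0464, 0.0523 and 0.0526 CPM, 1 count in each library, in Hs294T resistant (log2 fold change -2.01, SE 0.68, edgeR adjusted p = 0.0239). The call rests on 17 counts in all, and it was lost without Hs294T resistant 1 or 2 and with near-identical pairs summed. In WM9 resistant the same feature had 38.3, 33.7 and 21.2 CPM.

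Between the control groups, 0 members were higher and 1 (2.33%) was lower in Hs294T control than in WM9 control (edgeR quasi-likelihood test, adjusted p below 0.05), beside 2.1% and 1.77% of all features tested, so the members' share was near the background. At an unadjusted edgeR p below 0.05 the numbers were 2 and 2. The share over all features was not counted at that threshold, so these numbers have no background and nothing is read from them. DESeq2 called 0 members higher and 1 lower at adjusted p below 0.05, beside 739 and 546 of 18602 features. The feature called lower was row42115, with 0.687, 0.35 and 0.416 CPM in WM9 control and 0.0553, 0.0456 and 0.0969 CPM in Hs294T control replicates 1, 2 and 3 (log2 fold change -2.53, SE 0.56, edgeR adjusted p = 0.0204). Its groups did not overlap, and it had 19.7, 32.7 and 17.4 CPM in WM9 resistant. The adjusted p ran from 0.0191 to 0.0843 over 17 other fits and was below 0.05 in 12 of them. The call was lost without WM9 control 1 or 3, without Hs294T control 2 or 3, and with near-identical pairs summed, which left 0 members called. Of all 20097 features in the fit with pairs summed, 108 were called higher and 115 lower.

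The members formed the lower end of a range of levels in Hs294T resistant rather than a separate class. Features with at least 5 CPM in all WM9 resistant libraries and at most 1 CPM in all 6 controls numbered 176. Of these, 43 (24.4%) stayed at or below 1 CPM in Hs294T resistant and are the members, 76 had at least 5 CPM in all 3 Hs294T resistant libraries, and 57 did neither. By the highest Hs294T resistant library, 4 features were at 0, 25 lay above 0 and up to 0.5 CPM, 14 between 0.5 and 1 CPM, 14 between 1 and 2 CPM, 23 between 2 and 5 CPM and 96 above 5 CPM. Counts per interval showed no gap at the bound of 1 CPM.

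**Figure D4:**
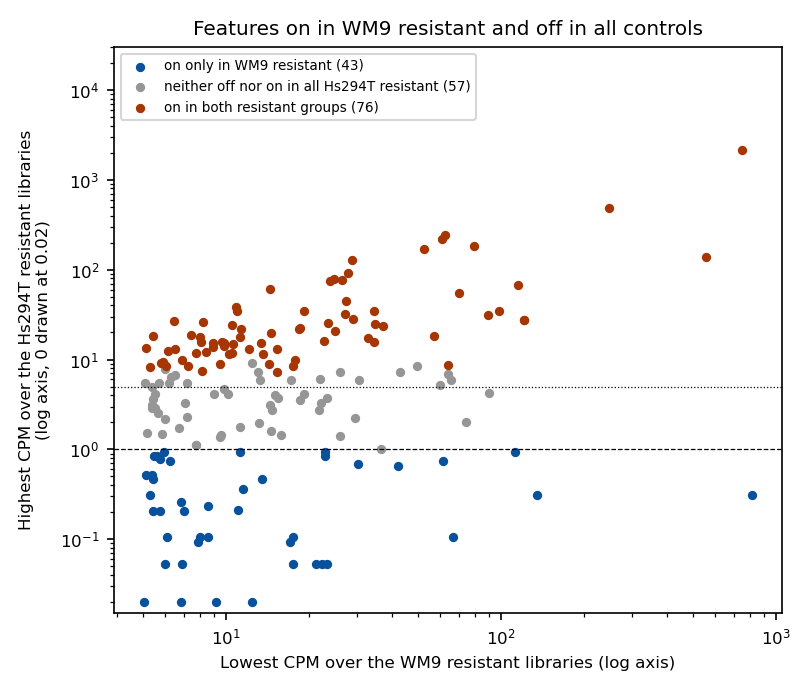
Each point is 1 of 176 features on in WM9 resistant and off in all 6 controls, with the lowest CPM over WM9 resistant (horizontal, log axis) against the highest CPM over Hs294T resistant (vertical, log axis). Dashed and dotted lines mark 1 and 5 CPM. The 43 members lie at or below the dashed line and 57 features that were neither off nor on in all Hs294T resistant libraries lie above it, 20 of them above 5 CPM while another of their Hs294T resistant libraries was below 5 CPM.

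The same rule was applied to the other groups for comparison. It found 97 features on only in Hs294T resistant, 76 on in both resistant groups, 4 on only in WM9 control and 1 on only in Hs294T control. The reverse pattern, at least 5 CPM in all 9 other libraries and at most 1 CPM in all WM9 resistant libraries, was found for 71 features. The 97 summed to 20.5, 17.6 and 17 CPM in WM9 resistant and 20, 13.1 and 11.7 CPM in WM9 control, so the groups overlapped. The difference between this set and the 43 members was not tested.

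The members were scattered over the table, from row 692 to row 76791, with a median gap of 1424 rows. The exception was a run of 4 neighbouring rows, row64980 to row64983, the only members with another member within 10 rows. What the row order follows is not given in the sources used here, and reads shared between overlapping features or near-identical copies were not told apart. In WM9 resistant the run summed to 72.3, 56.5 and 51.9 CPM, a mean of 60.2 ± 10.7 CPM. The sums were 0.313 ± 0.29 CPM in WM9 control, 0.474 ± 0.182 in Hs294T control and 1.67 ± 0.445 in Hs294T resistant (SD, n = 3 each).

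All 4 features of the run were highest in WM9 resistant 1. In the order of the table their mean CPM in WM9 resistant was 7.6, 10.4, 15.6 and 26.7. In Hs294T resistant against Hs294T control, row64980 (edgeR adjusted p = 0.00903), row64982 (0.0205) and row64983 (0.0144) were called higher, whereas row64981 was not (log2 fold change 0.39, SE 0.70, edgeR adjusted p = 0.675). With near-identical pairs summed, the edgeR adjusted p was 0.0137 for row64980, 0.0359 for row64982, 0.00809 for row64983 and 0.632 for row64981. The row before the run, row64979, is no member because it was on in every group, with mean CPM of 24.8 in WM9 control, 164 in WM9 resistant, 21.8 in Hs294T control and 46.2 in Hs294T resistant. Among 20 rows around the run, 10 on each side, only row64979 and row64975 passed the low-count filter, and row64975 had 20.5, 11.4, 21.6 and 16.5 CPM in the same order of groups.

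**Figure D5:**
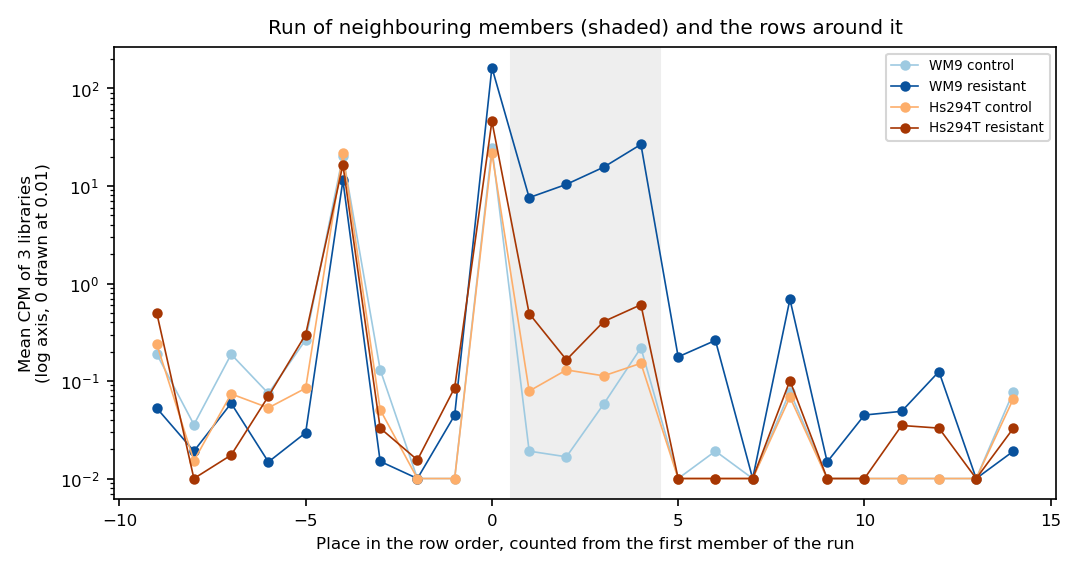
The horizontal axis counts rows with the first member of the run at 1, and the vertical axis is the mean CPM of 3 libraries per group (log axis). In the shaded run of 4 members WM9 resistant lies between 7.6 and 26.7 CPM and the other groups at most at 0.606 CPM, while the row just before it reaches 164 CPM in WM9 resistant and at least 21.8 CPM in each other group.

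The nearest tested rows that are no members were examined on either side of every member, 79 rows at a median distance of 3 rows from their member. In WM9 resistant against WM9 control, 37 of them (46.8%) were called higher and 26 (32.9%) lower, beside 30.3% and 31.4% of all features tested (edgeR quasi-likelihood test). A fitted log2 fold change of at least 3 was seen in 20 (25.3%), beside 7.93% of all features tested. In Hs294T resistant against Hs294T control, 22 of the same rows (27.8%) were called higher and 24 (30.4%) lower, beside 24.9% each. There 10 (12.7%) had a fitted log2 fold change of at least 3, and the share over all features was not taken.

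Rows nearest to the 97 features on only in Hs294T resistant numbered 188. In the Hs294T contrast 81 of these (43.1%) were called higher and 27 (14.4%) lower, beside 24.9% each of all features tested. In the WM9 contrast 57 (30.3%) were called higher and 49 (26.1%) lower, beside 30.3% and 31.4%. A fitted log2 fold change of at least 3 was seen in 41 (21.8%) in Hs294T and in 20 (10.6%) in WM9. Rows next to features on in 1 line only were thus called higher more often than the background in that line's contrast, by count. This difference between the lines was not tested, and reads that cross from a member into a neighbouring row were not measured.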

How the data were processed

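Gene-level reads were counted in 12 libraries. The authors deposited raw counts, with 1 column per library matched to its sample by the label, and 78932 rows without names, of which 52409 held a count. Per the submitters' processing notes, which give no roles, STAR 2.7.11b, Subread 2.0.8 with featureCounts, fastp 0.24.0, FastQC 0.12.1 and the build GRCh38 were used. The annotation is not given in the sources used here, and neither is the strand setting of the counting. The kit keeps strand and selects mRNA, per the labels' protocols.

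Members were found on CPM from column sums. Members, bounds, tests and named features were chosen with earlier results of these data known. The rule named the 4 members with most reads, those nearest each bound, the 2 most variable, those with the lowest adjusted p in the contrasts without WM9 resistant, and the longest run of rows. Tests were quasi-likelihood F tests (edgeR 4.0.16 under R 4.3.3 with limma 3.58.1; TMM factors, filterByExpr with a minimum count of 10, robust, two-sided, Benjamini-Hochberg adjustment over 18615 features), with 1 fit of all 12 libraries, 4 groups and 8 residual degrees of freedom. The code was tested on simulated data in which only features above 1 CPM were changed. Recovery of changes at the members' levels in the compared groups was therefore not tested. Alternatives were DESeq2 1.42.0, DESeq2 size factors, no low-count filter, a replicate block, each library left out and near-identical pairs summed. Deviations of same-numbered libraries of the control groups correlated at r 0.61, 0.30 and 0.12 over features. Among these libraries, 3 correlated best with their own number. The labels do not say that the numbers pair libraries, and these values do not settle it. The main fit therefore assumed no pairing, and the replicate block is given only as an alternative. Between the control groups the replicate block gave 0 members higher and 1 lower, beside 264 and 243 of all 18615 features. Depth is given by library totals, counting intervals (95%, Clopper-Pearson on the pair of counts) and a floor of 3 counts.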

Additional observations from a re-analysis of the deposited data

How the results depend on the processing

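The number of members depended on the bounds. It was 43 as given, 78 with a lower bound of 3 CPM, 20 with 10 CPM, 25 with an upper bound of 0.5 CPM and 79 with 2 CPM. TMM library sizes gave 60, which included all 43, and leaving out 1 library gave between 43 and 51, again with all 43 included. The members called higher in Hs294T resistant numbered 13 and lay between 10 and 15 over 17 other fits. By share of all features, those called higher ran from 5141 of 52409 (no low-count filter) to 4875 of 18602 (DESeq2) in these fits. With pairs summed they were 4139 of 20097. Members called lower numbered 1, and between 0 and 1 when a library was left out or near-identical pairs were summed. By share of all features, those called lower ran from 4579 of 52409 (no low-count filter) to 4816 of 18602 (DESeq2). With pairs summed they were 3413 of 20097. Between the control groups, 0 members were higher in every fit, and those lower ranged from 0 to 1 in the same way, with 0 for pairs summed. The cause was not tested. Of all features, between 108 of 20097 (pairs summed) and 915 of 19406 (without Hs294T control 1) were higher there. Between 115 of 20097 (pairs summed) and 546 of 18602 (DESeq2) were lower. In Hs294T the replicate block gave 11 members higher and 1 lower, beside 4515 and 4386 of all 18615 features. Same-numbered libraries correlated there at -0.21, -0.28 and 0.07 and 0 of 6 correlated best with their own number, so they share only a number. Of the nearest rows, between 34 and 38 were called higher in WM9 over the alternatives, which were added after the data were seen. TMM sizes raised the members' sum in WM9 resistant to 2753 CPM. A member at 0 counts in a library outside WM9 resistant can hold up to 0.178 CPM there, so a lower level and absence cannot be told apart at this depth.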
